A study of Homo sapiens with 20 samples.

Results

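The 10 genes described here belong to the TNF and TNF receptor superfamilies. They are the ligands TNFSF10 (TRAIL), LTA (lymphotoxin alpha) and CD70, the receptors TNFRSF8 (CD30), TNFRSF9 (4-1BB), CD40 and CD27, and the death receptors FAS, TNFRSF10A and TNFRSF10B, which bind TRAIL. They were chosen by name, as the genes to which a probe set of the array is annotated alone, and make up 10 of 18416 genes and 12 of 33268 probe sets. Transcript levels were measured in 5 established cell lines of classical Hodgkin lymphoma, KM-H2 and L428, and UHO-1, SUP-HD1 and L1236. Every group, controls included, stably expressed FOXO1(3A)ER, a constitutively active form of the transcription factor FOXO1 whose activity is placed under an oestrogen receptor ligand-binding domain. Cells of each line received 4-hydroxytamoxifen (4-OHT), which switches the fusion protein on, or its ethanol vehicle for 24 h, and each of the 10 groups was measured on 2 arrays, 20 in all. The dose is given as 200 µM in a text that names cells with another fusion protein, so it is quoted only as labelled. The design used here has no 4-OHT arm in cells lacking the fusion, and what 4-OHT does by itself cannot be told apart from what FOXO1 does. The labels do not say whether the fusion-carrying cells of a line were 1 clone or a pool, and they give 2 repeats of the experiment without saying that the cells were grown apart. The p-values therefore reflect array-to-array spread only, part of which may be technical.

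Ligands of the TNF superfamily are trimeric proteins, mostly held in the cell membrane, which cluster their receptors on the same or a neighbouring cell. Receptors without a death domain, such as CD30, CD40, CD27 and 4-1BB, recruit TRAF adaptors and switch on NF-kB, whereas the death receptors FAS, TNFRSF10A and TNFRSF10B recruit FADD and caspase-8 and can kill the cell. CD30 is the diagnostic surface antigen of the Hodgkin and Reed-Sternberg cell, the tumour cell of classical Hodgkin lymphoma, and NF-kB activity is a hallmark of that cell. TRAIL is one of the genes long described as a FOXO target in other cell types.

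The deposited values are log2 expression values, and a change is the mean of the 4-OHT arrays minus the mean of the vehicle arrays of the same line. A gene was called when its adjusted p lay below 0.05 in a limma model of all 20 arrays, with Benjamini-Hochberg adjustment over the 15850 genes with a value of at least 5 in at least 2 arrays. All 10 genes passed that floor, CD27 through L1236, UHO-1 and SUP-HD1 alone. Array medians were 5.67 to 5.71 for KM-H2 and L428 (8 arrays) but 6.26 to 6.41 for the remaining 12, and the sorted values show that the sets were normalised apart. Levels are therefore compared between lines only within each set. The number of arrays limits the precision, and over all genes 2 arrays of the same arm differed with an SD of 0.133 to 0.204. In RNA from whole cultures, fewer cells of a kind and less RNA per cell cannot be told apart.

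The arrays labelled L1236 went against their label in T cell markers. L1236 is described as a Hodgkin line of B cell origin, but these 4 arrays held high levels of T cell receptor complex and T cell signalling transcripts. In vehicle CD3E averaged 12.22, CD3G 11.91, CD3D 11.35, TRAT1 11.09 and LCK 10.22 log2 units. Of 8 T cell markers, each read on the scale of its own set, 7 stood at 8 or more there, against 1 in KM-H2 and 1 in UHO-1, where it was CD4, and 0 in L428 and SUP-HD1. The mean of the 8 markers ran from 9.99 to 10.11 in the 4-OHT arrays labelled L1236 and from 10.14 to 10.17 in the vehicle arrays, and lay between 5.52 and 6.28 in the UHO-1 and SUP-HD1 arrays of the same set. The mean of 11 Hodgkin cell markers was lower there, 7.58 to 7.66 in 4-OHT and 7.36 to 7.47 in vehicle, than in UHO-1 (10.54 to 10.67 over both arms) and SUP-HD1 (9.74 to 9.80). In vehicle IRF4, a factor of Hodgkin cells and plasma cells, averaged 6.31 there, against 12.20 for UHO-1 and 12.12 for SUP-HD1. TRAF1, an NF-kB-induced adaptor, averaged 5.36, against 10.17 and 9.60. Other Hodgkin markers lay closer, GATA3 at 9.85, against 10.93 and 10.41, and STAT6 at 9.75, against 10.55 and 10.05. B cell markers ran the other way. CD79A averaged 9.33, against 6.11 in UHO-1 and 6.63 in SUP-HD1, while MS4A1 was at 4.08 and at 4.22 and 4.00 in those lines. The mean of the B cell list, with 8 of its 10 genes measured, ran from 7.38 to 7.39 in 4-OHT in the arrays labelled L1236. In vehicle it ran from 6.82 to 6.87 there, against 6.03 to 6.45 in UHO-1 and SUP-HD1 over both arms. That of 6 measured myeloid markers ran from 5.79 to 5.88 in 4-OHT and from 5.07 to 5.24 in vehicle in the arrays labelled L1236. In 4-OHT and vehicle UHO-1 had 5.23 to 5.34 and 5.51 to 5.59, and SUP-HD1 5.42 to 5.44 and 5.54. LYZ, 1 of the 6, rose by 3.66 with 4-OHT in the arrays labelled L1236. The part of these markers in the results was not tested, and the averages of the 10 genes are given with and without these arrays. TNFRSF8 itself, the defining Hodgkin marker among the genes, averaged only 7.14 in SUP-HD1 vehicle, against 11.07 in UHO-1 vehicle.

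**Figure D1:**
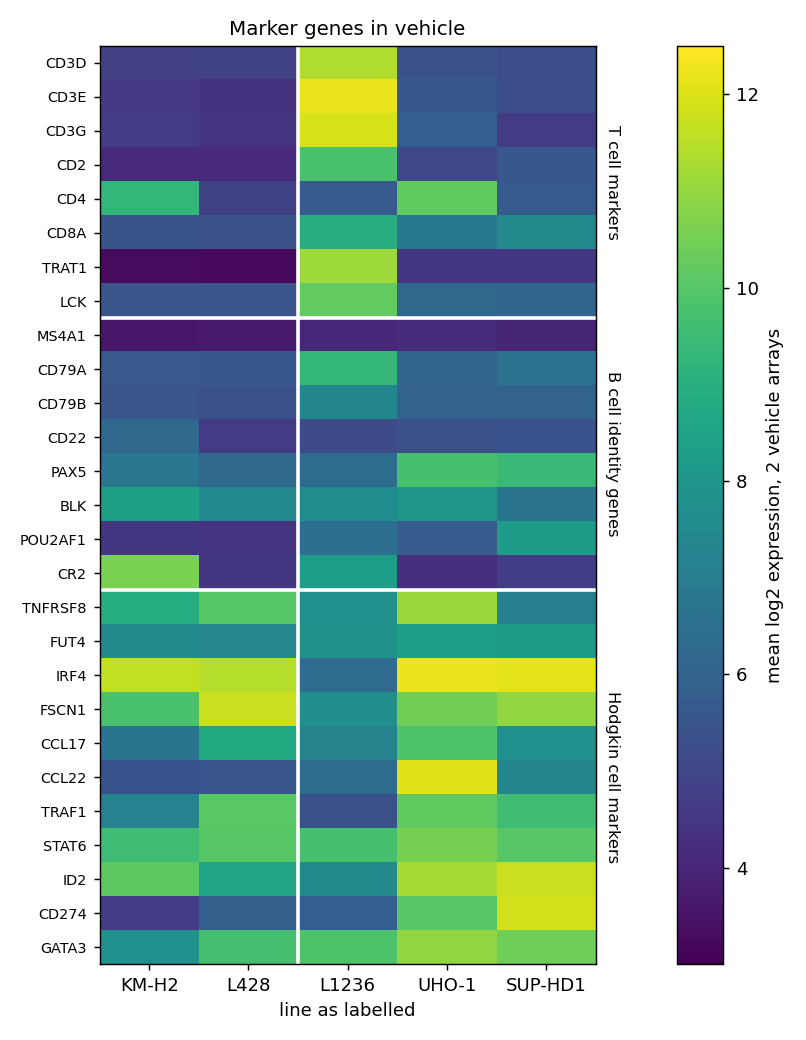
Mean log2 expression of T cell, B cell and Hodgkin cell marker genes (rows) in the 2 vehicle arrays of each line as labelled (columns), with colour for the level. The white vertical line parts the 2 separately normalised sets. The column labelled L1236 is high for 7 of 8 T cell markers and low for IRF4 at 6.31.

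The promoter windows of the genes that moved most, TNFSF10 upward and LTA, TNFRSF8 and TNFRSF9 downward, are shown so that their sequence can be read beside the responses. Each runs from 250 bases before to 50 after a start site of RefSeq, build GRCh38.p14, 5′ to 3′ on the strand of the gene. RefSeq windows were found for 6 of the 10 genes, 9 windows in all. Capitals mark matches, on either strand, to GGG and CC parted by any 5 bases, a loose form of the NF-kB motif, to TGANTCA, the AP-1 motif, and to CACGTG, the E-box. Neighbouring capitals can come from overlapping matches of the NF-kB form on both strands.
TNFSF10 window at chr3:172523381-172523680, minus strand: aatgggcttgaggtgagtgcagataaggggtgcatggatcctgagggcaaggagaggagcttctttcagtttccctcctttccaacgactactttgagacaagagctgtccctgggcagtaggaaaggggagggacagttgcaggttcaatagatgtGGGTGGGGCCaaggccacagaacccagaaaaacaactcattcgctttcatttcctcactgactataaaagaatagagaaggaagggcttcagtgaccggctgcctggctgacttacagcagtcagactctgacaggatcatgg
LTA window 2 at chr6:31572039-31572338, plus strand: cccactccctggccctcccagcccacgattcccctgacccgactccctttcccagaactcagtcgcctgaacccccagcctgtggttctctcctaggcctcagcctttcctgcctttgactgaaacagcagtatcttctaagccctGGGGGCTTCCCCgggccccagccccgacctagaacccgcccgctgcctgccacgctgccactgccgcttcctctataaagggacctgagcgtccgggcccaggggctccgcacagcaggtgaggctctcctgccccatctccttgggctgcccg
TNFRSF8 window at chr1:12063053-12063352, plus strand: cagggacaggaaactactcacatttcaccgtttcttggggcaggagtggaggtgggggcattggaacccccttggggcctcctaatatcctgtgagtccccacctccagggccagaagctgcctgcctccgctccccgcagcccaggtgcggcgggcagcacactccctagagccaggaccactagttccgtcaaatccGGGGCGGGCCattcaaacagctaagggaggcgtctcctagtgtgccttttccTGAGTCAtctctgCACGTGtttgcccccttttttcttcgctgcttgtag
TNFRSF9 window at chr1:7940790-7941089, minus strand: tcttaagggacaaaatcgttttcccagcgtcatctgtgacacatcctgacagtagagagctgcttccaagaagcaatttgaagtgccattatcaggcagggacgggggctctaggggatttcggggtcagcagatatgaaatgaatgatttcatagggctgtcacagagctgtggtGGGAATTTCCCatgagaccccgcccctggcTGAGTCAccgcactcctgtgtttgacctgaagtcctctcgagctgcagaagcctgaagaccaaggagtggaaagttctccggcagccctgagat

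The forkhead letters GTAAACA and GTAAATA, searched on both strands, occurred in none of the 9 windows, and occur in 3.42% and 2.67% of all 35116 RefSeq windows of 300 bases. That says only that these letters are not in these windows. The NF-kB form, GGG and CC parted by any 5 bases, occurred in all 9 windows and in 58.7% of all windows. The 9 windows come from 6 genes, and some windows of LTA and of FAS overlap, so they are not separate sequences. LTA window 1, which is not shown, holds 1 match of this form. TGANTCA, found in 7.71% of all windows, occurred in the windows of TNFRSF9 and TNFRSF8, beginning 44 bases before and 1 base after the start, and also in the CD27 window and 1 of the 3 FAS windows. CACGTG, found in 7.26% of all windows, occurred in the TNFRSF8 window. The matches were counted as letters and their use in these cells was not measured.

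Averaged over the 5 lines, 2 of the 10 genes rose with 4-OHT, TNFSF10 and FAS, and 6 fell, LTA, TNFRSF8, TNFRSF9, TNFRSF10B, CD70 and TNFRSF10A, whereas CD40 and CD27 were not called. The share of all genes called in that comparison was 38.6% (17.4% higher, 21.2% lower). Without the arrays labelled L1236 it was 39.2% (18.2% higher, 21% lower), and the count was again 8. With the lines as replicates, 0 of the 10 genes and 1 of all genes tested were called on average. In KM-H2, 1 gene rose and 4 fell, where 22.3% of all genes were called, 10% higher and 12.3% lower. In L428, 2 rose and 5 fell, where 29.5% were called, 12% higher and 17.5% lower, the highest count of the 5 lines. The arrays labelled L1236 gave 2 higher and 1 lower, where 23.1% of all genes were called, 8.25% higher and 14.9% lower. UHO-1 gave 1 higher and 2 lower (24.5% of all genes, 13.4% higher and 11.1% lower), and SUP-HD1 2 higher and 1 lower (6.03%, 3.68% higher and 2.35% lower). The median change of the 10 genes was -0.15 for KM-H2, -0.39 for L428, -0.16 for UHO-1, 0.025 for SUP-HD1 and -0.018 for the arrays labelled L1236, beside medians of all genes between -0.035 and -0.0026. The 4-OHT and vehicle arrays did not overlap for 8 genes each in KM-H2 (58% of all genes), L428 (60.1%), L1236 (49.4%) and UHO-1 (70.6%), and for 5 in SUP-HD1 (44.5%). Of the 50 combinations of gene and line, 21 were called, 8 higher and 13 lower, and 6 reached 1 log2 unit, all in KM-H2 or L428. Without UHO-1 4-OHT array 2 or vehicle array 2 the UHO-1 count was 2, without the vehicle array 1 labelled L1236 the count there was 5, and the SUP-HD1 count was 2 in 3 fits that left out 1 of its arrays. With median centring the L1236 count was 6, 2 higher and 4 lower, and in UHO-1 5 were called with quantile normalisation, 1 higher and 4 lower, and with its arrays alone, 2 higher and 3 lower.

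**Figure D2:**
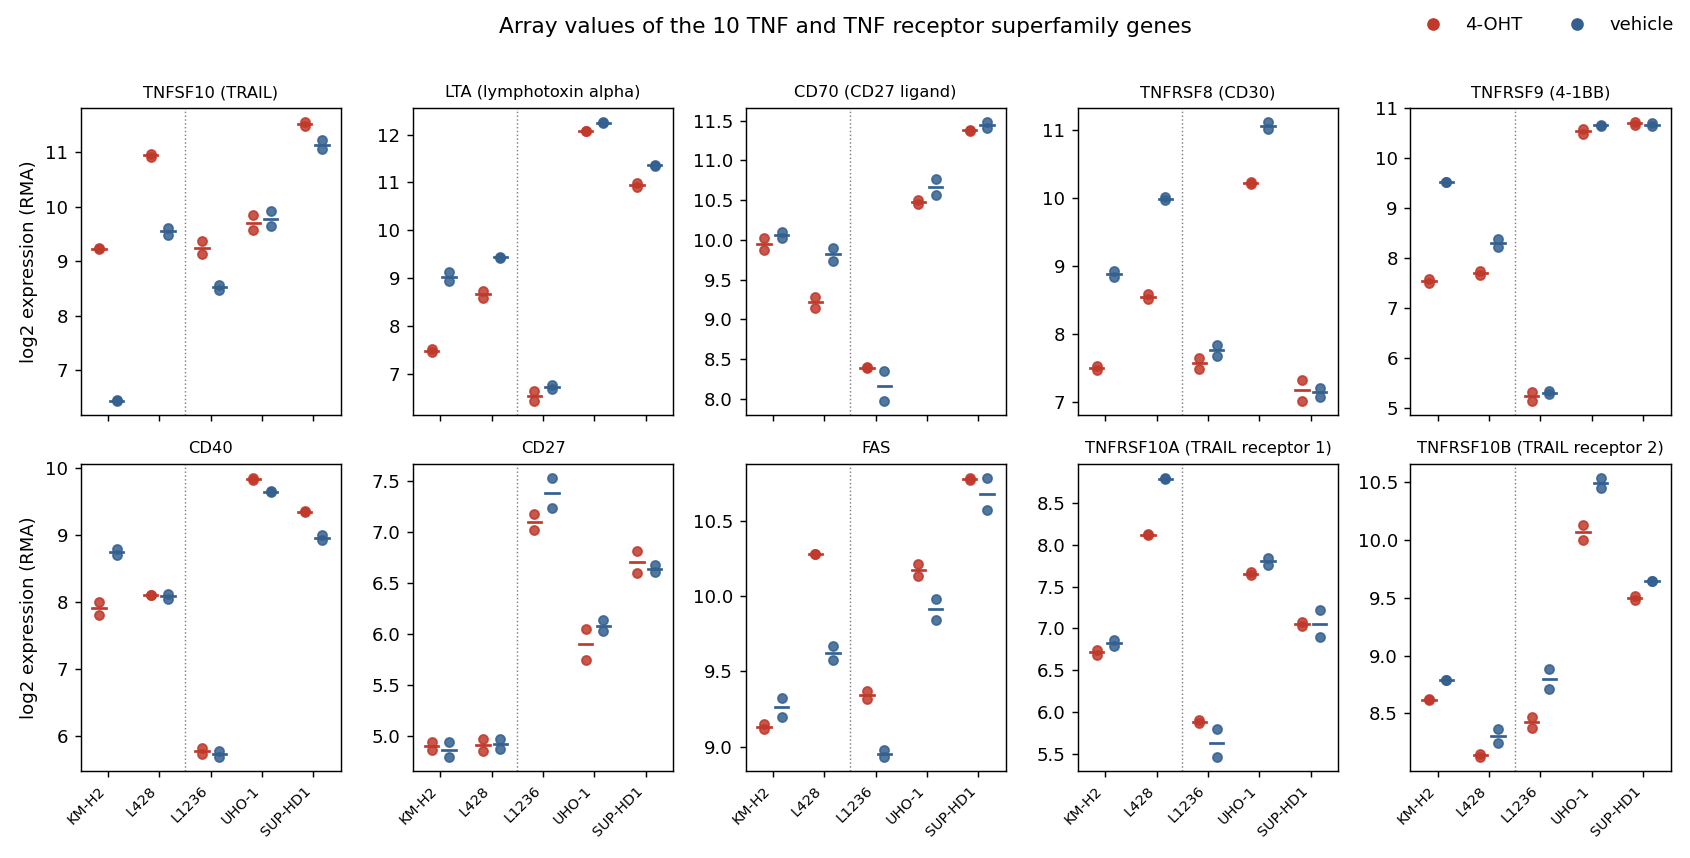
Log2 expression (RMA) of each gene on each array, by line, with 4-OHT arrays in red left of the vehicle arrays in blue and a dash at each mean of 2 arrays. The dotted line parts the 2 separately normalised sets, and each panel has its own scale. The widest gap is that of TNFSF10 in KM-H2, 9.24 and 9.23 with 4-OHT against 6.45 and 6.44 with vehicle.

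Among the ligands, TNFSF10 encodes TRAIL, which triggers death through TNFRSF10A and TNFRSF10B, and it was the gene that moved most. In KM-H2 it stood at 9.24 and 9.23 log2 units in the 4-OHT arrays, against 6.45 and 6.44 in the vehicle arrays. In L428 the values were 10.91 and 10.98 with 4-OHT, against 9.49 and 9.60 with vehicle. All 4-OHT arrays of both lines lay more than 1 log2 unit above their vehicle arrays. TNFSF10 rose by 2.79 ± 0.095 in KM-H2, 6.90-fold (limma, SE, n = 2 arrays per arm, adjusted p = 3.24e-16), and by 1.40 ± 0.095 in L428, 2.63-fold (adjusted p = 1.36e-10). The arrays labelled L1236 read 9.37 and 9.13 with 4-OHT and 8.47 and 8.57 with vehicle, a rise of 0.73 ± 0.095 (adjusted p = 4.02e-06). SUP-HD1 arrays, which held the highest levels of TNFSF10 in their set, read 11.56 and 11.48 with 4-OHT and 11.23 and 11.05 with vehicle. The rise of 0.37 ± 0.095 there (adjusted p = 0.0185) was lost without 4-OHT array 1 (adjusted p = 0.183), 4-OHT array 2 (0.075) or vehicle array 2 (0.198), and with median centring (0.0516), with no intensity trend (0.0728) or over every probe set (0.075). UHO-1 was the line without a call, and its arms overlapped, at 9.57 and 9.85 with 4-OHT and 9.64 and 9.92 with vehicle. Its change was -0.073, with a 95% interval of -0.27 to 0.12 (limma adjusted p = 0.585). Over the 5 lines TNFSF10 rose by 1.04 ± 0.043, 2.06-fold (SE, n = 10 arrays per arm, limma adjusted p = 8.2e-15), and without the arrays labelled L1236 by 1.12 ± 0.045 (adjusted p = 7.66e-14). By the size of the average change it was number 48 of the 15850 genes tested.

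LTA, whose product is secreted as a trimer that binds TNF receptors and also joins lymphotoxin beta at the cell surface, was lower in both 4-OHT arrays than in both vehicle arrays of every line on the probe set used. KM-H2 held 7.47 and 7.51 with 4-OHT, against 9.13 and 8.94 with vehicle. In L428 the levels were 8.58 and 8.74, against 9.43 and 9.45. The gap was wider in KM-H2, where LTA fell by 1.54 ± 0.074, 2.92-fold lower (limma, SE, n = 2 arrays per arm, adjusted p = 1.81e-13), than in L428, where it fell by 0.78 ± 0.074 (adjusted p = 2.58e-08). SUP-HD1 held 10.91 and 10.999, against 11.35 and 11.37, and LTA fell by 0.40 ± 0.074 (adjusted p = 0.00124). The UHO-1 arrays read 12.07 and 12.07 with 4-OHT and 12.26 and 12.24 with vehicle, a difference of -0.18 ± 0.074 that missed the threshold (adjusted p = 0.0835) but passed with cyclic loess (0.0425), with quantile normalisation (0.0258) and with the UHO-1 arrays alone (0.0117). Those labelled L1236 read 6.44 and 6.64 with 4-OHT and 6.69 and 6.77 with vehicle, -0.19 ± 0.074 (adjusted p = 0.0747), and passed only where 4-OHT array 2 was left out (0.0212), with median centring (0.0311) or with quantile normalisation (0.0188). On average LTA fell by 0.62 ± 0.033, 1.53-fold lower (SE, n = 10 arrays per arm, limma adjusted p = 1.15e-12), and without L1236 by 0.72 ± 0.032 (adjusted p = 3.93e-13). LTA has 3 probe sets, and the other 2 gave average changes of -0.61 and -0.52. The one with -0.52 overlapped in the arrays labelled L1236, at 6.74 and 7.10 with 4-OHT and 6.92 and 6.86 with vehicle, a difference of 0.033.

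CD70, the ligand of CD27 on activated lymphocytes, was called in a single line. L428 read 9.14 and 9.28 with 4-OHT and 9.74 and 9.90 with vehicle, without overlap. There CD70 fell by 0.61 ± 0.092, 1.52-fold lower (limma, SE, n = 2 arrays per arm, adjusted p = 1.89e-05). KM-H2 (9.88 and 10.03, against 10.09 and 10.02) and SUP-HD1 (11.39 and 11.37, against 11.41 and 11.48) were not called, at -0.11 and -0.067. The UHO-1 values were 10.45 and 10.51 with 4-OHT and 10.77 and 10.57 with vehicle, a change of -0.19 ± 0.092 (adjusted p = 0.135). L1236-labelled arrays lay the other way, at 8.40 and 8.38 with 4-OHT and 8.35 and 7.98 with vehicle, 0.23 ± 0.092 (adjusted p = 0.085), and passed without vehicle array 1 (0.00173) and with cyclic loess (0.0321). The average fell by 0.15 ± 0.041 (n = 10 arrays per arm, limma adjusted p = 0.00611) and without L1236 by 0.24 ± 0.037 (2.07e-05). That average rested on L428: without it the change was -0.034 (adjusted p = 0.621). It also missed the threshold with cyclic loess (0.0603).

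Of the receptors without a death domain, TNFRSF8 encodes CD30. It fell in KM-H2, L428 and UHO-1 and had no call in the other lines. The KM-H2 arrays read 7.47 and 7.53 with 4-OHT, against 8.93 and 8.84 with vehicle. L428 arrays read 8.51 and 8.59, against 10.01 and 9.98. TNFRSF8 fell by 1.38 ± 0.091 in KM-H2, 2.60-fold lower (limma, SE, n = 2 arrays per arm, adjusted p = 4.1e-11), and by 1.45 ± 0.091 in L428, 2.73-fold lower (3.7e-11). UHO-1, with the highest TNFRSF8 of its set, read 10.21 and 10.24 with 4-OHT and 11.12 and 11.02 with vehicle, and the gene fell by 0.85 ± 0.091, 1.80-fold lower (adjusted p = 4.52e-07). Those labelled L1236 (7.49 and 7.65, against 7.84 and 7.69) differed by -0.20 ± 0.091 (adjusted p = 0.142; 0.0453 with median centring). In SUP-HD1, where the gene was low, the arms overlapped at 7.02 and 7.33 with 4-OHT and 7.08 and 7.21 with vehicle. The change there was 0.027, with a 95% interval of -0.16 to 0.22 (limma adjusted p = 0.943). On average TNFRSF8 fell by 0.77 ± 0.041, 1.70-fold lower (n = 10 arrays per arm, limma adjusted p = 9.04e-13), and without L1236 by 0.91 ± 0.042 (8.95e-13).

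TNFRSF9 encodes 4-1BB, a costimulatory receptor of activated T cells. It fell in the KM-H2 and L428 lines and stayed uncalled in the other 3. In KM-H2 the arrays read 7.59 and 7.51 with 4-OHT, against 9.53 and 9.52 with vehicle, the second widest gap of the 50 combinations. L428 read 7.67 and 7.74, against 8.23 and 8.38. The gene fell by 1.97 ± 0.077 in KM-H2, 3.93-fold lower (limma, SE, n = 2 arrays per arm, adjusted p = 3.93e-15), and by 0.60 ± 0.077 in L428 (1.96e-06). UHO-1 and SUP-HD1 had high levels in both arms. UHO-1 read 10.48 and 10.58 with 4-OHT and 10.65 and 10.67 with vehicle, a change of -0.13 ± 0.077 (adjusted p = 0.229; 0.0498 with quantile normalisation), and SUP-HD1 read 10.72 and 10.67 with 4-OHT and 10.70 and 10.65 with vehicle, 0.023 ± 0.077 (0.944). Near the floor, the arrays labelled L1236 read 5.14 and 5.33 with 4-OHT and 5.28 and 5.33 with vehicle, a difference of -0.072 ± 0.077 (0.612). On average TNFRSF9 fell by 0.55 ± 0.035 (n = 10 arrays per arm, limma adjusted p = 1.44e-11), by 0.67 ± 0.033 without L1236 (1.8e-12), and by 0.19 without KM-H2 (0.000751). In L1236, UHO-1 and SUP-HD1 alone the average was -0.058 (adjusted p = 0.382).

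CD40, through which T cells help B cells, moved in opposite directions in different lines. In KM-H2 the values were 7.999 and 7.81 with 4-OHT, against 8.79 and 8.70 with vehicle. It fell there by 0.84 ± 0.079, 1.79-fold lower (limma, SE, n = 2 arrays per arm, adjusted p = 1.86e-08). In SUP-HD1 the values were 9.36 and 9.34 with 4-OHT, against 8.99 and 8.92 with vehicle, and CD40 rose by 0.39 ± 0.079, 1.31-fold (adjusted p = 0.00287). UHO-1 lay between, at 9.81 and 9.84, against 9.63 and 9.65, without overlap and without a call (0.19 ± 0.079, adjusted p = 0.0851), though it was called with median centring (0.0437) and with the UHO-1 arrays alone (0.0428). L428 (8.10 and 8.10, against 8.12 and 8.04) and the arrays labelled L1236 (5.72 and 5.82, against 5.78 and 5.69) overlapped between arms, with changes of 0.019 and 0.036. The average of -0.041, with a 95% interval of -0.11 to 0.032 (limma adjusted p = 0.399; -0.061 and 0.189 without L1236), held these opposite changes. It was 0.16 without KM-H2 (adjusted p = 0.00329), -0.15 without SUP-HD1 (0.00774) and -0.41 in KM-H2 and L428 alone (5.81e-05). CD40 was the 1 gene of the 10 called higher in one line and lower in another, which held for 8.12% of all genes.

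CD27, the receptor of CD70 on T cells and memory B cells, was not called in any line. All 8 arrays of KM-H2 and L428 lay below 5 log2 units, between 4.80 and 4.97. SUP-HD1 read 6.61 and 6.82 with 4-OHT and 6.61 and 6.68 with vehicle, and UHO-1 read 5.74 and 6.06 with 4-OHT and 6.03 and 6.14 with vehicle. Both overlapped, with changes of 0.067 and -0.18. The arrays labelled L1236, in which T cell markers were high, had the highest CD27 of their set, 7.18 and 7.02 with 4-OHT against 7.24 and 7.53 with vehicle. The change there was -0.28 ± 0.13 (limma, SE, n = 2 arrays per arm, adjusted p = 0.119; 0.0384 without vehicle array 1 and just under the threshold with median centring). The average was -0.075, with a 95% interval of -0.19 to 0.042 (limma adjusted p = 0.326), and without L1236 -0.023 (0.787).

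Among the death receptors, FAS, which binds FAS ligand, was higher in 3 lines. L428 read 10.28 and 10.28 with 4-OHT, against 9.67 and 9.57 with vehicle. FAS rose there by 0.66 ± 0.070, 1.58-fold (limma, SE, n = 2 arrays per arm, adjusted p = 1.3e-07). L1236-labelled arrays read 9.32 and 9.37, against 8.93 and 8.98, and FAS rose by 0.39 ± 0.070 (0.000193). UHO-1 read 10.13 and 10.21, against 9.98 and 9.84, a rise of 0.26 ± 0.070 (0.00986) that was lost without its 4-OHT array 2 (0.097) or vehicle array 2 (0.138). KM-H2 lay the other way without a call, at 9.15 and 9.12 with 4-OHT and 9.20 and 9.33 with vehicle (-0.13 ± 0.070, adjusted p = 0.233). SUP-HD1, with the highest FAS of its set, overlapped at 10.78 and 10.77 with 4-OHT and 10.78 and 10.57 with vehicle (0.10 ± 0.070, adjusted p = 0.55). On average FAS rose by 0.26 ± 0.031, 1.19-fold (n = 10 arrays per arm, limma adjusted p = 5.94e-07), and without L1236 by 0.22 ± 0.035 (3.43e-05).

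TNFRSF10A and TNFRSF10B encode the TRAIL receptors, and neither was called higher in any line in the model of all 20 arrays. TNFRSF10A was called in L428, at 8.11 and 8.13 with 4-OHT against 8.80 and 8.79 with vehicle, where it fell by 0.67 ± 0.11, 1.59-fold lower (limma, SE, n = 2 arrays per arm, adjusted p = 4.2e-05). KM-H2 read 6.69 and 6.74 with 4-OHT and 6.86 and 6.79 with vehicle, and UHO-1 read 7.67 and 7.64 with 4-OHT and 7.84 and 7.76 with vehicle, and neither was called, at -0.11 and -0.15. SUP-HD1 arms overlapped at 7.07 and 7.03 with 4-OHT and 7.21 and 6.90 with vehicle. For the arrays labelled L1236 the levels were 5.86 and 5.90 with 4-OHT and 5.46 and 5.79 with vehicle, a difference of 0.26 ± 0.11 (adjusted p = 0.101; 0.0143 without vehicle array 2). The average fell by 0.14 ± 0.049 (n = 10 arrays per arm, limma adjusted p = 0.0311) and by 0.23 ± 0.046 without L1236 (0.000392). It was lost in 10 of 20 fits that left out 1 array, was -0.0018 without L428 (adjusted p = 0.986), and missed the threshold with cyclic loess (0.245), without KM-H2 (0.0646) and without UHO-1 (0.0881).

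TNFRSF10B was lower with 4-OHT in all 5 lines, without overlap in any. UHO-1 read 10.00 and 10.13 with 4-OHT, against 10.45 and 10.53 with vehicle, and the gene fell by 0.42 ± 0.072, 1.34-fold lower (limma, SE, n = 2 arrays per arm, adjusted p = 0.000184). L1236-labelled arrays read 8.47 and 8.37, against 8.71 and 8.89, and it fell by 0.38 ± 0.072 (0.000393). In the other lines the differences were smaller and not called. KM-H2 read 8.62 and 8.62, against 8.79 and 8.79 (-0.17 ± 0.072, adjusted p = 0.108), L428 read 8.15 and 8.12, against 8.37 and 8.25 (-0.17 ± 0.072, 0.0812), and SUP-HD1 read 9.51 and 9.48, against 9.64 and 9.64 (-0.14 ± 0.072, 0.337). On average TNFRSF10B fell by 0.26 ± 0.032, 1.19-fold lower (n = 10 arrays per arm, limma adjusted p = 9.18e-07), and without L1236 by 0.23 ± 0.032 (1.09e-05).

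**Figure D3:**
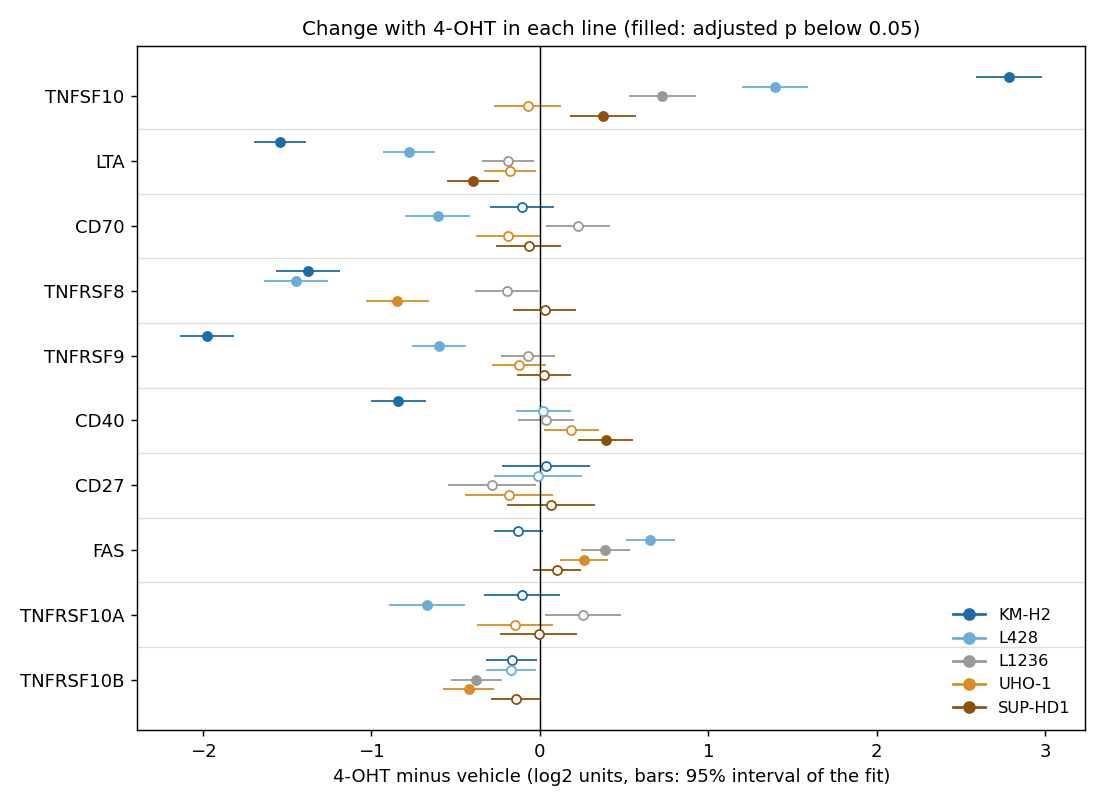
Change with 4-OHT in log2 units (x axis) of each gene (y axis) in each line, with bars for the 95% interval of the limma model and filled points for an adjusted p below 0.05. KM-H2 and L428 hold the 6 changes of 1 log2 unit or more, TNFSF10 points lie right of 0 but for UHO-1 at -0.073, and all 5 points of LTA and of TNFRSF10B lie left of 0.

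The size of the change differed between the 5 lines for 8 of the 10 genes by limma's F test, where 42.7% of all genes differed, and for the same 8 in number without the arrays labelled L1236, where 36.4% did. CD27 (adjusted p = 0.339) and TNFRSF10B (0.0597) were not among the 8. The TNFRSF10B test passed in 4 of 20 fits that left out 1 array, with cyclic loess (adjusted p = 0.00811) and with quantile normalisation (0.00326). LTA, on the probe set used and not on 1 of its other 2, and TNFRSF10B had changes of 1 sign in all 5 lines, and none of the other 8 genes did. The share of all genes with 1 sign in all 5 was 16.5%, and 0 of the 10 were called in 1 direction in all 5, as were 0.574% of all genes. TNFSF10, LTA, TNFRSF8 and FAS were called in 3 lines or more, as were 12.4% of all genes. The changes of KM-H2 and L428 differed for 7 of the 10 genes (22.9% of all genes). TNFSF10 rose further in KM-H2 than in L428, by 1.39 ± 0.13 (limma contrast, adjusted p = 5.5e-08), and TNFRSF9 fell further there, by -1.37 ± 0.11 (2.88e-09). CD40 (-0.86 ± 0.11, adjusted p = 4.12e-06) and LTA (-0.77 ± 0.11, 8.43e-06) also lay lower in KM-H2 than in L428 in their change, as did FAS (-0.78 ± 0.099, 2.66e-06). For TNFRSF8 the difference of 0.070 ± 0.13 between KM-H2 and L428 was not called (adjusted p = 0.797). UHO-1 and SUP-HD1 differed for 1 gene of the 10 (4.04% of all genes), TNFRSF8, at -0.87 ± 0.13 (adjusted p = 0.000142). Of the 10 genes, 6 differed between KM-H2 and L1236 (24.1% of all genes), 6 between KM-H2 and UHO-1 (17.5%), 5 between KM-H2 and SUP-HD1 (12.9%), 6 between L428 and L1236 (19.9%), 7 between L428 and UHO-1 (19.4%) and 8 between L428 and SUP-HD1 (13%). Between L1236 and UHO-1 3 differed (25.7%), and between L1236 and SUP-HD1 1 did (14.1%). Counted by gene, TNFRSF8 and TNFSF10 differed in 8 of the 10 pairs of lines, TNFRSF9 and LTA in 7, CD40 in 6, FAS and CD70 in 5, TNFRSF10A in 4, and CD27 and TNFRSF10B in 0. These differences between pairs of lines were computed after the values had been seen. The pairs share lines, so the counts by gene are not separate results, and no share of all genes stands beside those counts.

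Starting levels also differed between lines. In vehicle, 9 of the 10 genes differed between KM-H2 and L428, where 54.2% of all genes did. TNFSF10, the ligand with the widest response, was lower in KM-H2 than in L428, by -3.10 log2 units as KM-H2 minus L428, 8.58-fold (limma, n = 2 arrays per line, adjusted p = 4.93e-18), at means of 6.45 and 9.55. TNFRSF10A (-1.97, 3.92-fold, adjusted p = 2.41e-13, means of 6.82 and 8.79) and TNFRSF8 (-1.11, 2.49e-10) were lower there too, as were LTA (-0.41) and FAS (-0.36). TNFRSF9 was higher in KM-H2 than in L428 by 1.22 (2.74e-12), CD40 by 0.66 and TNFRSF10B by 0.48. CD70, higher in KM-H2 by 0.24 (adjusted p = 0.0319), lost its call without KM-H2 vehicle array 1 (0.162) or 2 (0.0532) or L428 vehicle array 1 (0.273), with no intensity trend (0.0756) and over every probe set (0.0684). CD27, below 5 in both, did not pass (-0.057, adjusted p = 0.748).

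In the other set the order of the vehicle levels was UHO-1, SUP-HD1, L1236 from high to low for LTA, at 12.25, 11.36 and 6.73, for CD40, at 9.64, 8.96 and 5.73, for TNFRSF10A, at 7.80, 7.06 and 5.63, and for TNFRSF10B, at 10.49, 9.64 and 8.80. It was SUP-HD1, UHO-1, L1236 for TNFSF10, at 11.14, 9.78 and 8.52, for CD70, at 11.45, 10.67 and 8.16, and for FAS, at 10.67, 9.91 and 8.96. TNFRSF8 ran 11.07 in UHO-1, 7.76 in L1236 and 7.14 in SUP-HD1, and CD27 7.38 in L1236, 6.64 in SUP-HD1 and 6.08 in UHO-1. In these orders the neighbours all differed in the limma model except for TNFRSF9, which stood at 10.66 in UHO-1 and 10.67 in SUP-HD1 (difference -0.012, adjusted p = 0.912) and at 5.31 in L1236. Between L1236 and UHO-1, and between L1236 and SUP-HD1, all 10 genes differed (56.8% and 57.5% of all genes), and between UHO-1 and SUP-HD1 9 did (53.8%). The widest of these gaps was that of LTA, 45.8-fold lower in the arrays labelled L1236 than in UHO-1. TNFRSF9 came next, at -5.36 log2 units as L1236 minus SUP-HD1 and -5.35 as L1236 minus UHO-1, and no fold is given since it lay near the floor in the arrays labelled L1236. The T cell transcripts of those arrays stand beside both gaps, and their part was not tested.

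After subtraction of each line's mean, some of the genes ran together over the 20 arrays, which share their lines and normalisation sets, so the correlations are given as a description. TNFRSF9 and LTA had r = 0.95, TNFRSF8 and LTA 0.87, CD40 and TNFRSF9 0.82 and TNFRSF8 and TNFRSF9 0.81. TNFSF10 ran against them, at -0.97 with LTA, -0.94 with TNFRSF9 and -0.84 with TNFRSF8. Without the arrays labelled L1236 (16 arrays) the values were 0.95 for TNFRSF9 with LTA, -0.98 for TNFSF10 with LTA and -0.96 for TNFSF10 with TNFRSF9. By line, TNFSF10 changed by 2.79 in KM-H2, where LTA changed by -1.54 and TNFRSF9 by -1.97. In L428 the values were 1.40 for TNFSF10, -0.78 for LTA and -0.60 for TNFRSF9. UHO-1 stood apart for TNFRSF8, which fell by 0.85 where TNFSF10 was not called (-0.073). TNFRSF10A and CD70, both called in L428 alone, had r = 0.70, and 0.88 without L1236.

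**Figure D4:**
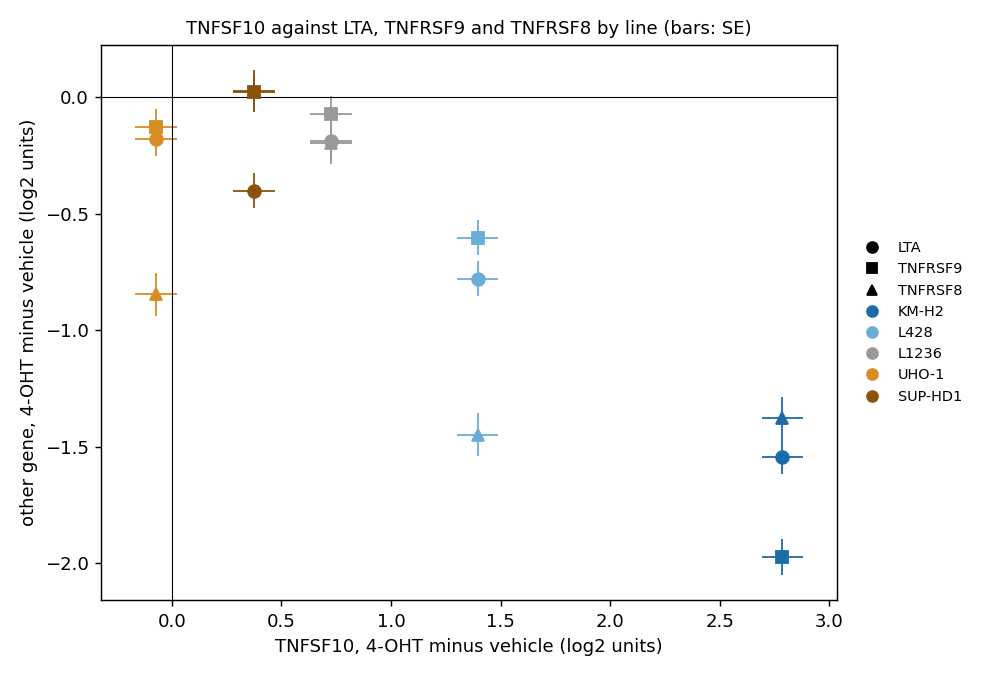
Change of LTA (circles), TNFRSF9 (squares) and TNFRSF8 (triangles) with 4-OHT on the y axis against the change of TNFSF10 on the x axis, both in log2 units, with 1 colour a line and bars for the SE. KM-H2 lies farthest right and L428 next, KM-H2 is lowest for LTA and TNFRSF9 and L428 for TNFRSF8 (-1.45, against -1.38 in KM-H2), and the triangle of UHO-1 lies at -0.85 at a TNFSF10 change of -0.073.

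The 3 genes with the most similar pattern, by the highest r over the same line-centred arrays and all 15850 genes, were found for each gene. For TNFSF10 they were MDM2 (0.98), BTG1 (0.97) and ANXA1 (0.96), and for LTA they were ABCD2 (0.96), LPCAT1 (0.95) and TNFRSF9 (0.95). TNFRSF8 ran closest to IL2RB (0.97), CNPY3 (0.96) and MAPK13 (0.95), and TNFRSF9 to NLRP2 (0.99), SPOP (0.97) and DDR2 (0.97). For CD40 they were MELTF (0.96), MYO1G (0.92) and ARHGAP31 (0.91). FAS ran closest to ZNF641 (0.95), SLFN5 (0.94) and MTURN (0.94), TNFRSF10B to TM7SF3 (0.95), PFDN2 (0.95) and KAT2A (0.93), and TNFRSF10A to the cyclins CCNE1 (0.94) and CCNA2 (0.90) and to PBX3 (0.90). CD70 ran closest to AURKB (0.91), TGM5 (0.90) and SLC35E4 (0.89). The weakest were those of CD27, ALDH7A1 (0.83), CMPK2 (0.82) and MOCS1 (0.82), and ALDH7A1 fell to 0.65 without the arrays labelled L1236. Leaving out those arrays replaced all 3 nearest genes of FAS (by PPT1, FCHO2 and MINAR2) and of CD70 (by MRPL14, HNRNPL and SART1). For TNFSF10 CXCL10 then came first, at 0.98, and the remaining genes kept some of their 3.

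Other genes of the pathway were read from lists drawn up by role. Of 15 further ligands, 9 were tested, and on average 1 rose and 3 fell (38.6% of all genes called), with a median of -0.036 beside -0.025 over all genes. FASLG (0.0052, limma adjusted p = 0.952) and TNFSF9, the ligand of 4-1BB (-0.036, 0.529), were not called on average, nor without L1236 (-0.051, 0.484 and -0.053, 0.372). TNFSF8, the ligand of CD30, was not called either, at -0.036 (0.681) and, without L1236, 0.12 (0.157), and it fell by 0.64 in the arrays labelled L1236 (0.000769). CD40LG, TNFSF12 and TNFSF13 have no probe set with a single gene symbol, and TNFSF11, TNFSF15 and TNFSF18 lay below the floor. Of 22 further receptors, 18 were tested, 3 rose and 4 fell (2 and 5 without L1236), with a median of -0.032, a count near the 38.6% of all genes. TNFRSF21, a death receptor, fell by 0.46 ± 0.044 (n = 10 arrays per arm, limma adjusted p = 1.31e-08), and by 0.40 without L1236 (1.22e-06). It was lower in all 5 lines but called only in KM-H2, L428 and the arrays labelled L1236. TNFRSF11A, the RANK receptor, rose by 0.23 ± 0.046 (0.000359) and by 0.17 without L1236 (0.00111). By line it was called only in L428 and the arrays labelled L1236.

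Of 19 TRAF and ubiquitin genes 16 were tested, and 8 rose and 1 fell on average, with and without L1236, beside 17.4% of all genes higher and 21.2% lower, with a median of 0.080. CYLD, which trims ubiquitin chains from NF-kB adaptors, rose by 0.25 ± 0.065 (n = 10 arrays per arm, limma adjusted p = 0.00342) and by 0.26 without L1236 (0.00409). By line it was called in L428 alone, and its average was not called without L428 (0.20, adjusted p = 0.057). RNF31, the catalytic subunit of the linear ubiquitin ligase, rose by 0.13 (0.11 without L1236, adjusted p = 0.0145). By line RNF31 was called in the arrays labelled L1236 alone. MAP3K7, the kinase TAK1, rose by 0.098 (0.11 without L1236, adjusted p = 0.016), with a call by line in KM-H2 alone. Its average lost the call with median centring (0.0752), without KM-H2 (0.223) and without UHO-1 (0.0741). TRAF1 was not called (-0.042, adjusted p = 0.571; -0.070 and 0.13 without L1236). Of 12 genes of death receptor signalling 10 were tested, and 3 rose and 4 fell on average, beside 17.4% and 21.2% of all genes, with a median of -0.039. Without the arrays labelled L1236 1 rose and 4 fell, beside 18.2% and 21% of all genes. CASP8, the initiator caspase, rose by 0.29 ± 0.038 (1.77e-06) but was not called without L1236 (0.099, adjusted p = 0.0787), in whose arrays it rose by 1.03. It rose in L428 by 0.35 and in SUP-HD1 by 0.29, and fell in KM-H2 by 0.28 (limma adjusted p = 0.0186). The SUP-HD1 call was lost with median centring (0.0991). The L428 change was 0.23 without its vehicle array 2, and the KM-H2 change -0.24 without its 4-OHT array 2. CFLAR, which blocks caspase-8, rose by 0.19 ± 0.039 (0.00037) but was not called on average without L1236 (0.085, 0.0812). It rose in the arrays labelled L1236 by 0.62, in L428 by 0.26, in UHO-1 by 0.24 and in SUP-HD1 by 0.37. In KM-H2 it fell by 0.53. The calls in L428, UHO-1 and SUP-HD1 were lost with the mean over probe sets (limma adjusted p = 0.183, 0.189 and 0.102). FAF1, which binds FAS, fell by 0.23 ± 0.031 (2.86e-06) and by 0.29 without L1236 (8.59e-07), with calls by line in KM-H2 and L428. FADD, the adaptor of the death receptors, fell by 0.14 ± 0.041 (0.0071) and was called by line in KM-H2 alone. Its average was -0.18 without L1236 (0.00119) and -0.10 without KM-H2 (0.0665).

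All 17 NF-kB subunit and output genes were tested, and 5 rose and 7 fell on average (5 and 5 without L1236), beside 17.4% of all genes higher and 21.2% lower, with a median of -0.067. In KM-H2, 3 rose and 10 fell, with a median of -0.38 beside -0.0026 over all genes, of which 10% were called higher and 12.3% lower there. L428 had 3 higher and 2 lower (12% and 17.5% of all genes), and UHO-1 6 higher and 0 lower (13.4% and 11.1%). SUP-HD1 had 5 higher and 0 lower (3.68% and 2.35%), and the arrays labelled L1236 2 higher and 5 lower (8.25% and 14.9%). TNFAIP3, the NF-kB-induced enzyme that shuts the pathway off, rose by 0.34 ± 0.029 on average (n = 10 arrays per arm, limma adjusted p = 2.9e-09) and by 0.43 without L1236 (1.18e-09). It rose by 0.46 in KM-H2, 0.62 in L428 and 0.44 in SUP-HD1, and the rise of 0.21 in UHO-1 was lost without its 4-OHT array 1 (0.175) or vehicle array 2 (0.31).

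**Figure D5:**
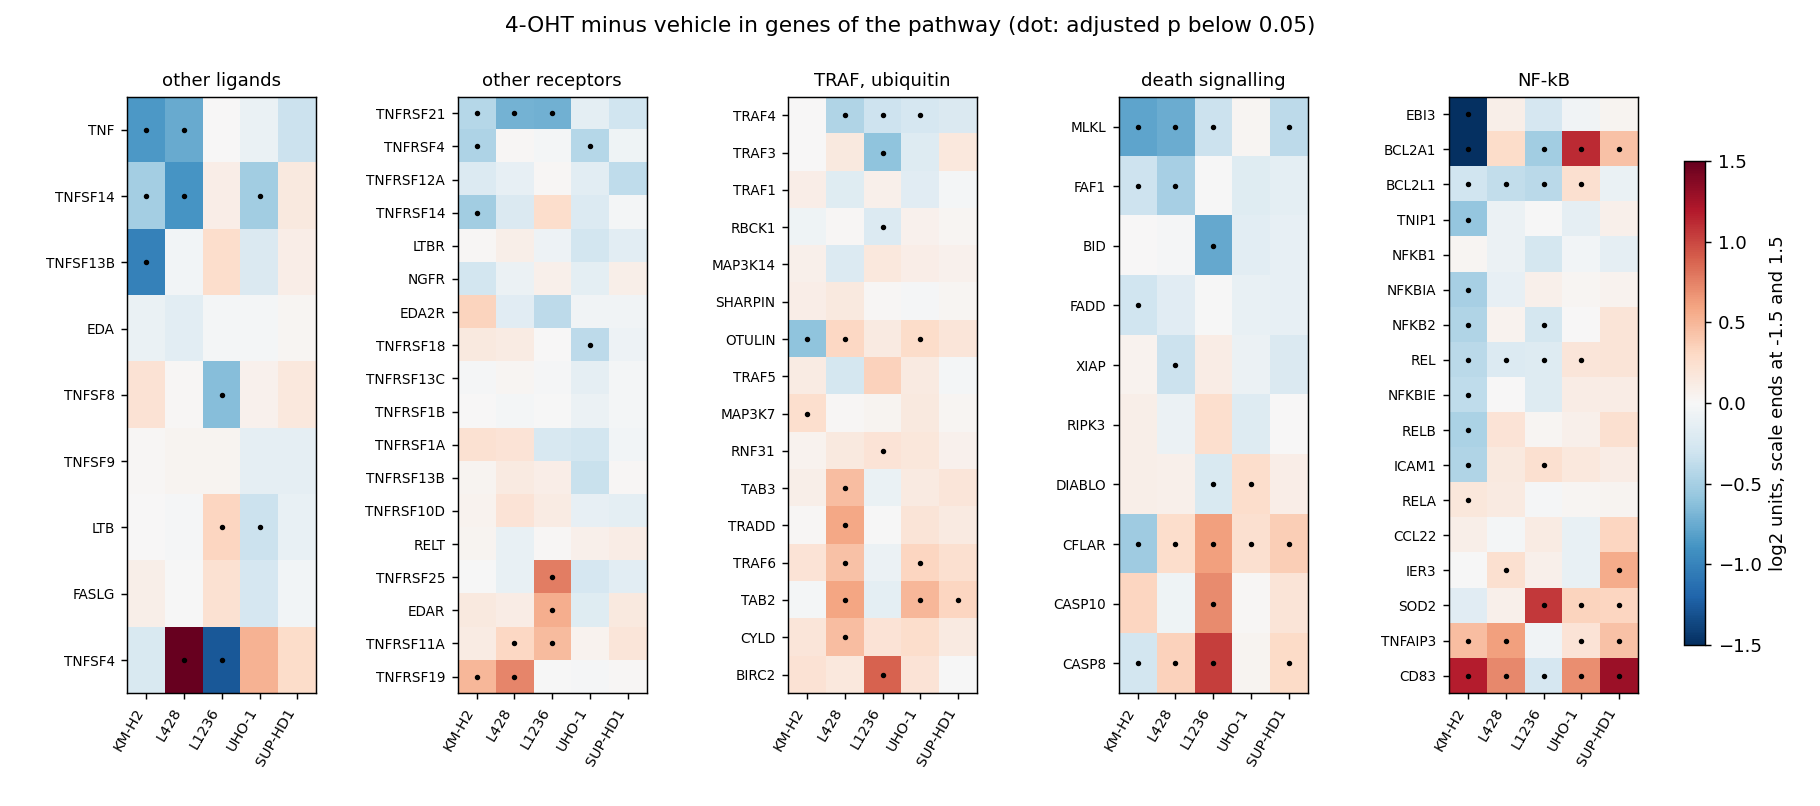
Change with 4-OHT in log2 units (colour, red higher and blue lower, cut at 1.5 in each direction) of the tested genes of the 5 pathway lists, 1 column a line, with a dot for an adjusted p below 0.05. The NF-kB panel is mostly blue in its KM-H2 column, where 10 of 17 genes were called lower. In UHO-1 and SUP-HD1 0 were called lower, though some uncalled changes lie below 0.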

How the data were processed

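Total RNA of 5 cell lines was hybridised to Affymetrix Human Gene 1.0 ST arrays. Per the labels, what the authors deposited is on a log2 scale and comes from RMA (background correction, normalisation between arrays, summary over the probes of a probe set). For the RMA version and the genome build the answer is: not given in the sources used here. Between arrays, sorted values differed by up to 0.253 inside the KM-H2 and L428 set and up to 0.204 inside that of the other 3 lines, but by at least 0.712 between these sets.

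Of 33268 probe sets, 19457 carry a single symbol in the platform's annotation, 1751 carry several and 12060 stay unnamed here. For a gene with several, the probe set with the highest mean was used. Groups were taken from the array titles. limma 3.58.1 in R 4.3.3 fitted 10 group means (lmFit, eBayes with an intensity trend, 10 residual degrees of freedom) to genes with at least 5 in at least 2 arrays, 15850 of 18416. The contrasts set 4-OHT against vehicle line by line, with their mean over lines, an F test between lines, and vehicle levels within a set. P-values were adjusted by Benjamini-Hochberg over all genes of a contrast.

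The genes and lists were chosen with earlier results of these data known. From each pathway list were named up to 4 genes with the largest average change among those called and of 1 sign in all lines, and 8 fixed names. Alternatives were median centring, cyclic loess, quantile normalisation, no floor or a floor of 6, no trend, a replicate block, other uses of probe sets, single lines or sets, each array or line left out, and lines as replicates. Leaving L1236 out of the F test, lists and patterns was added after the data were seen. Promoter letters were read with Python 3.11.15, and figures drawn with matplotlib 3.10.9.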

Additional observations from a re-analysis of the deposited data

Results flagged for a closer look

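For 8 of the 10 genes the change with 4-OHT differed between the 5 lines in limma's F test, at adjusted p-values of 1.15e-12 for TNFSF10, 5.05e-12 for TNFRSF9, 1.44e-09 for LTA, 3.01e-09 for TNFRSF8, 9.51e-08 for CD40, 1.54e-05 for FAS, 0.000435 for CD70 and 0.000749 for TNFRSF10A. Such a difference held for 42.7% of all genes. The change of TNFSF10 ran between 2.79 in KM-H2 and -0.073 in UHO-1, and that of TNFRSF9 between -1.97 in KM-H2 and 0.023 in SUP-HD1. LTA lay between -1.54 in KM-H2 and -0.18 in UHO-1, TNFRSF8 between -1.45 in L428 and 0.027 in SUP-HD1, and CD40 between -0.84 in KM-H2 and 0.39 in SUP-HD1. FAS reached 0.66 in L428 against -0.13 in KM-H2, while CD70 and TNFRSF10A were lowest in L428, at -0.61 and -0.67, and highest in the arrays labelled L1236, at 0.23 and 0.26.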

How the results depend on the processing

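Of 3290 recomputed values for the 10 genes, 3225 kept their side of the threshold, 39 lost and 23 gained a call. A further 3 turned in sign with a call before or after. For other named genes these were 3763, 119, 34 and 5 of 3921. Changes that turned in sign without a call were counted with those that kept their side. An example is CD40 in L428, at 0.019 and, with median centring, -0.017. The causes were not tested. The average of CD40 was 0.16 without KM-H2 and 0.20 in L1236, UHO-1 and SUP-HD1 alone, and there that of TNFRSF10A was 0.034 and that of TNFSF4 -0.16 (-0.18 without L428). BCL2A1 averaged 0.33 without KM-H2 and 0.35 in those 3 lines, and CFLAR -0.13 in KM-H2 and L428 alone. With median centring 6 of the 10 genes were called in L1236 and 626 genes in SUP-HD1. Of the 10, 5 were called in UHO-1 with quantile normalisation, and 5 with its arrays alone. In L1236, UHO-1 and SUP-HD1 alone 3979 genes were called on average. With the lines as replicates 1 gene was called on average, RIPOR2, against 2496 at an unadjusted p below 0.05, and 0 of the 10 genes (limma), against 5 at an unadjusted p below 0.05. Leaving out 1 array gave 2378 to 3781 genes called in L1236, with 3 to 5 of the 10, 1857 to 4275 in UHO-1 and 433 to 1014 in SUP-HD1. Among calls, 35.7% were higher in L1236, against 23.6% with median centring and 50.8% with cyclic loess. The share was 54.6% in UHO-1 (72.8% with median centring) and 61% in SUP-HD1 (73%). Same-numbered arrays of the arms deviated together with r of -0.56 (L1236) to 0.29 (UHO-1), which does not settle whether the numbers pair them. A replicate block called 857 genes in SUP-HD1 and 8 of the 10 genes on average, and it moved no count by over 1.5 times. Having 2 arrays an arm limits what can be called, and signal over background was not given.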

Other observations

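Some pathway genes outside the 10, picked after their values were seen, differed widely between lines. TNFSF4, the OX40 ligand, rose by 2.29 log2 units in L428 (limma adjusted p = 5.75e-09) and fell by 1.27 in the arrays labelled L1236 (3.55e-05). BCL2A1, an anti-apoptotic NF-kB target, fell by 2.42 in KM-H2 and rose by 1.12 in UHO-1. EBI3, a cytokine subunit induced by NF-kB, fell by 1.58 in KM-H2. CD83, a marker of activated B cells and dendritic cells, rose by 1.28 in SUP-HD1, 1.17 in KM-H2, 0.72 in L428 and 0.70 in UHO-1, while the arrays labelled L1236 had -0.26 (adjusted p = 0.00258). Among the ligands TNF fell by 0.86 in KM-H2 and 0.75 in L428, and TNFSF14, the ligand LIGHT, by 0.51 in KM-H2, 0.88 in L428 and 0.53 in UHO-1. MLKL, the executor of necroptosis, fell by 0.80 in KM-H2 and 0.75 in L428.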
